A study of Rattus norvegicus with 12 samples.

Results

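The genes described here are 30 genes of cholesterol and fatty acid synthesis and of the SREBP system that controls them, found by their gene names in the deposited normalized table. They correspond to 31 gene identifiers, because Fdps is listed under a pair of them, and all 31 passed the filter on low counts, out of 14601 genes tested. By role they are 8 named enzymes from acetyl-CoA to squalene (9 identifiers), 10 enzymes from squalene to cholesterol, 6 regulators and carriers (Insig1, Insig2, Srebf1, Srebf2, Scap and Stard4) and 6 enzymes of fatty acid synthesis. Poly(A) RNA was sequenced from NRK-49F cells, a fibroblast line from normal rat kidney, after transfection with the empty pcDNA3.1 plasmid or with one that expresses Flag-tagged human HDAC1. HDAC1 removes acetyl groups from histones and other proteins. Each plasmid was combined with vehicle (medium with 0.5% FBS) or with 2 ng/ml TGFB1 in the same medium for 24 hours, which gave 4 groups of 3 libraries, named here empty vector, vehicle; HDAC1, vehicle; empty vector, TGFB1; and HDAC1, TGFB1. The titles and the treatment field mark 6 libraries as untreated or vehicle, whereas the series' design text speaks of TGFB1 treatment without setting any cells apart, and the treatment field of the other libraries adds a running number to TGFB; the groups follow the titles. All groups share the cell line, the transfection, the plasmid backbone and the low serum, and no untransfected cells are among them. Nothing in the labels tells if the replicates came from different cultures, and p-values therefore measure the spread between these libraries, which may be technical.

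Cells build cholesterol from acetyl-CoA in a long chain of reactions: acetyl-CoA is joined to HMG-CoA, reduced to mevalonate, carried through isoprenoid diphosphates to squalene, closed into lanosterol, and trimmed to cholesterol. The enzymes are controlled together by the SREBP transcription factors, made from Srebf1 and Srebf2 as precursors held in the endoplasmic reticulum by Scap and the Insig proteins. When membrane sterol falls, Scap escorts SREBP to the Golgi, where it is cut, and the freed part enters the nucleus and binds sterol regulatory elements in target promoters, usually beside CCAAT or GC boxes that bind NF-Y and SP1. SREBP-2 acts mainly on sterol genes, and SREBP-1c on fatty acid genes. Much of this control acts on the protein, and transcript counts do not measure it.

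RefSeq promoter windows of the rat assembly GRCr8, from 250 bases before to 50 after the gene start, were found by symbol for 23 of the 30 members (24 windows, since Srebf1 has a pair), and none was found for Acaca, Elovl6, Fasn, Fdft1, Pmvk, Sqle and Stard4. Motifs were chosen with the expression values known and were searched on both strands. CCAAT was present in 19 of the 24 windows (79.2%) and in 37.5% of all 33469 windows, and the GC box GGGCGG was in 20 (83.3%) and in 33.1% of all. The classical sterol regulatory element was in 0 of the 24 windows and in 0.125% of all, and with at most 1 letter different it was in 2 of the 24 (Fdps and Srebf2) and in 1.88% of all. The E-box CACGTG was in 3 of the 24 (Sc5d, Insig1 and Scap; 12.5%) and in 6.42% of all. Matches to different motifs did not overlap among the members; a match is a description of the window, and no factor's binding was measured. The 250 bases before the start are printed for 6 members. Msmo1 and Idi1 had large rises under TGFB1, and Hsd17b7 had the largest log2 value under HDAC1 in vehicle. Fdps and Srebf2 held the near match to the sterol element, and the Srebf1 transcript fell. Cyp51 and Scd rose more than Idi1 with TGFB1 on the empty vector (log2 values 1.24 and 1.23 against 1.13). Their windows, and those of Acat2, Dhcr7 and Scap, held no CCAAT and are not printed. Capitals mark CCAAT on either strand (ATTGG on the printed strand when it lies on the other) and, in Fdps and Srebf2, the near match to the sterol element.
Msmo1 (chr16:29746863-29747112, plus strand): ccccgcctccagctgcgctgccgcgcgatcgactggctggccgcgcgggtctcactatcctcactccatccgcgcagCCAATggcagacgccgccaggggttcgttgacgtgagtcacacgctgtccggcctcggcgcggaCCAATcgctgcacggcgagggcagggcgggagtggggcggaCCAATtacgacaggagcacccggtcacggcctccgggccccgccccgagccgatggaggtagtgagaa
Idi1 (chr17:66547525-66547774, minus strand): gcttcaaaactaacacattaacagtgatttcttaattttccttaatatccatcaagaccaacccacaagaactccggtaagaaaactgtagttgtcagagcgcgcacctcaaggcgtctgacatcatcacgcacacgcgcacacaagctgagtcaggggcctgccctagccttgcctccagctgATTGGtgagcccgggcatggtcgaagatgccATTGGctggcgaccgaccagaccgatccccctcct
Hsd17b7 (chr13:84722755-84723004, minus strand): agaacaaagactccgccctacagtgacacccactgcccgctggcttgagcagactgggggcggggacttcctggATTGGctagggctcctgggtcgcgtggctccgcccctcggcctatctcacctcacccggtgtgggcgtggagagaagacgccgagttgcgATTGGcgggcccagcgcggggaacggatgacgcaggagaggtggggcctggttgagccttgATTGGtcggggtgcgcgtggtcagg
Fdps (chr2:176804817-176805066, minus strand): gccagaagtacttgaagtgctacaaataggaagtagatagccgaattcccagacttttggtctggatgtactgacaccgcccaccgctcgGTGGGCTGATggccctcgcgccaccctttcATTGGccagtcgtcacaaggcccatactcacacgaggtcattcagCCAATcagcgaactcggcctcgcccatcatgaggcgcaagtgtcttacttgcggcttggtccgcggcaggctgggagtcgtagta
Srebf2 (chr7:115543057-115543306, plus strand): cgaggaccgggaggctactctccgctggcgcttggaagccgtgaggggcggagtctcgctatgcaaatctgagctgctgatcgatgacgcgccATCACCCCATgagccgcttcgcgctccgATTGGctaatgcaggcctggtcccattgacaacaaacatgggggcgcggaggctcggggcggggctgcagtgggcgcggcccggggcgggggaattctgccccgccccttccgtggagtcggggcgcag
Srebf1, one window (chr10:45519011-45519260, minus strand): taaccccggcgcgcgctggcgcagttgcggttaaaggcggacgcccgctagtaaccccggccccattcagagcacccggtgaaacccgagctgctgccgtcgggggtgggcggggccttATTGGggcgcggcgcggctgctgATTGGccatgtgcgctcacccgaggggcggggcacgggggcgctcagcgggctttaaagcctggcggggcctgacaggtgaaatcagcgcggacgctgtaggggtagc
Srebf1, the other window (chr10:45529165-45529414, minus strand): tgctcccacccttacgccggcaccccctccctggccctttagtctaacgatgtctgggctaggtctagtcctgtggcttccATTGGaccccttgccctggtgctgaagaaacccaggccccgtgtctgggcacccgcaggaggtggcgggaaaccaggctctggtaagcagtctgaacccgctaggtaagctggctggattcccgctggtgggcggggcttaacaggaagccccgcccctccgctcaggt

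Library totals ran from 18397093 to 36652084 counts. Hdac1 was at 212, 205 and 212 CPM (counts scaled by library size) with the empty vector in vehicle and at 428, 375 and 460.4 CPM with the HDAC1 plasmid, which was 2.01-fold higher (adjusted p = 9.29e-07, edgeR). In the TGFB1 groups Hdac1 stood at 259, 250.2 and 290.4 CPM and 501, 416 and 474 CPM, 1.74-fold higher with the plasmid (adjusted p = 1.6e-05, edgeR); the plasmid carries the human sequence, so the share of its reads counted on rat Hdac1 is uncertain. Of 10 fibroblast markers 8 were tested by name, and their summed level was 12476 to 25757 CPM. Summed heart markers (20 of 20 tested) were 70.4 CPM in the empty vector vehicle library numbered 1 against 379.8 and 404 CPM in its other libraries, 238 to 453 CPM with HDAC1 in vehicle, 433 to 548 CPM with empty vector and TGFB1, and 153 to 169 CPM with HDAC1 and TGFB1. Summed brain markers (14 of 15 tested) were 16.04 CPM in that library, 87.0 and 88.0 CPM in its other libraries, 64.9 to 101 CPM with HDAC1 in vehicle, 105 to 108 CPM with empty vector and TGFB1, and 36.6 to 38.2 CPM with HDAC1 and TGFB1, and the part of these markers in the results below was not tested.

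A pair of libraries stood apart for these genes. Replicate 2 of the HDAC1 vehicle group was the highest of its 3 libraries in 31 of 31 members, and so was replicate 2 of the HDAC1 TGFB1 group. Among all genes tested, 16.1% were highest in replicate 2 of both groups. The members lay above the other 2 libraries of the group by a median of 0.29 log2 in vehicle (0.095 to 0.50) and 0.29 with TGFB1 (0.10 to 0.64). Rat Hdac1 was lowest in these same libraries, at 374.6 and 416 CPM. Among other SREBP targets outside the members, 8 of 13 were also highest in both, against 1 of 12 SREBP processing genes and 3 of 14 genes of sterol storage and transport. No other library was the highest of its group in more than 19 members. Counts of members called are therefore given also with both of these libraries left out, an alternative chosen after seeing the data; lists outside the members were not counted again in this way.

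**Figure D1:**
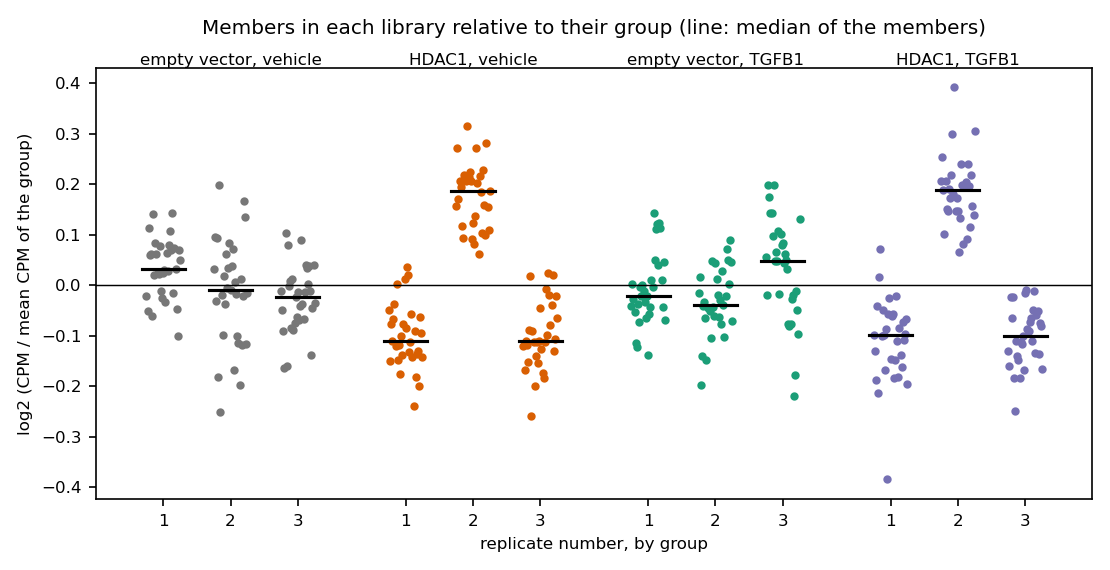
Each point is 1 of the 31 member identifiers in 1 of the 12 libraries, as log2 of its CPM over the mean CPM of its group (y axis), with libraries by replicate number and group on the x axis and a line at the median. Replicate 2 of both HDAC1 groups lies above 0 for all members, with medians of 0.19 in each.

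By numbers of calls, TGFB1 raised most of the pathway, and HDAC1 raised part of it in vehicle and 1 member when TGFB1 was present. The test of that difference between the HDAC1 effects, the interaction given below, called 0 of 31 members. With the empty vector, TGFB1 raised 21 of the 31 member identifiers and lowered 2 (edgeR quasi-likelihood test, called at an adjusted p under 0.05), against 25.9% of all genes that rose and 25% that fell. In HDAC1 cells it raised 19 and lowered 4, against 24.9% and 24.2% of all genes. HDAC1 in vehicle raised 10 and lowered 1, against 6.64% and 7.32% of all genes, and HDAC1 with TGFB1 raised 1 and lowered 1, against 2.17% and 4.36%. HDAC1 plus TGFB1 against neither raised 20 and lowered 4, against 28.7% and 28.2%.

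The median log2 fold change of the members was 0.44 for TGFB1 on the empty vector (0.012 over all genes) and 0.34 for TGFB1 in HDAC1 cells (-0.019 over all genes). It was 0.24 for HDAC1 in vehicle (-0.0082 over all genes) and -0.0025 for HDAC1 with TGFB1 (-0.0015 over all genes). With both replicate 2 libraries left out, TGFB1 raised 21 and lowered 3 members on the empty vector, where 23.4% of all genes rose and 25.5% fell in the same fit. In HDAC1 cells it then raised 17 and lowered 4, against 17.3% and 19.6% of all genes. HDAC1 then raised 7 and lowered 2 in vehicle, with a median of 0.13, against 6.57% and 6.64% of all genes. With TGFB1 it then raised 0 and lowered 3, with a median of -0.11, against 1.83% and 3.32%. HDAC1 plus TGFB1 against neither then raised 19 and lowered 6, against 24.5% and 26.3%. An exact permutation test of 3 libraries against 3 cannot go below p = 0.1, so calls rest on the model fitted across all genes.

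**Figure D2:**
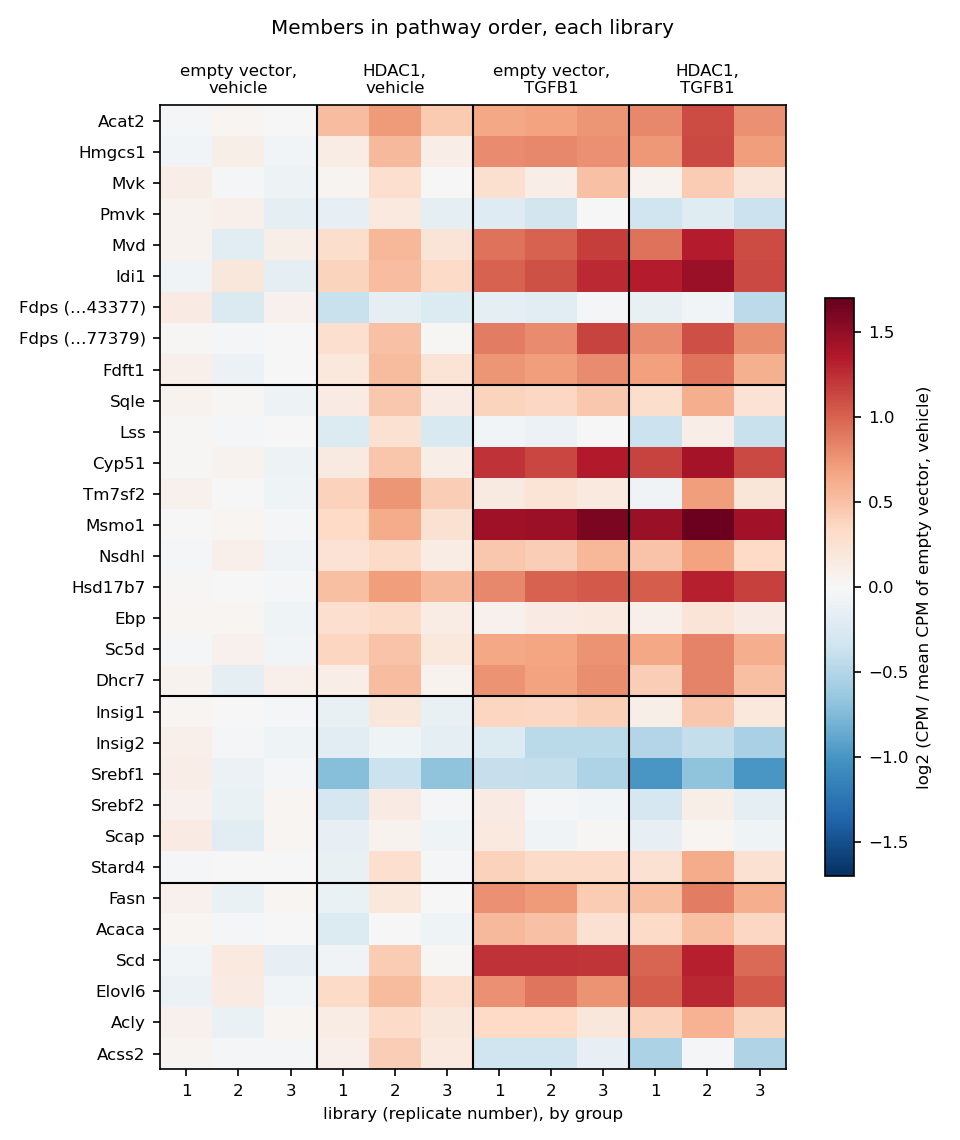
Rows are the 31 member identifiers in pathway order, with lines between the 4 roles, and columns are the 12 libraries by group; colour is log2 of CPM over the mean CPM of the empty vector vehicle group. Most enzyme rows are red in all 6 TGFB1 libraries and paler red with HDAC1 in vehicle, while Srebf1 and Insig2 are blue.

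In the first section of the pathway, from acetyl-CoA to squalene, TGFB1 on the empty vector raised 7 of 9 identifiers and lowered 0, against 25.9% and 25% of all genes. The largest rise was that of Idi1, the isomerase that makes the reactive isoprenoid unit. Idi1 stood at 39.4, 47.2 and 36.8 CPM with empty vector and vehicle, at 53.3, 59.3 and 51.4 CPM with HDAC1 and vehicle, at 82.4, 87.6 and 99 CPM with empty vector and TGFB1, and at 103, 114 and 90 CPM with HDAC1 and TGFB1. Both groups with TGFB1 lay above both without it, and the HDAC1 vehicle libraries lay above the empty vector vehicle libraries, while the pair of TGFB1 groups overlapped. Its log2 fold change, given with its SE here and below, was 1.13 ± 0.099, adjusted p = 1.65e-08 for TGFB1 on the empty vector and 0.41 ± 0.099, adjusted p = 0.00827 for HDAC1 in vehicle (edgeR). With HDAC1 and TGFB1 together Idi1 was 2.49-fold the level of neither.

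Acat2, the thiolase that joins acetyl-CoA units at the start of the chain, had the smallest adjusted p of all members for HDAC1 in vehicle. It stood at 104, 108 and 104 CPM with empty vector and vehicle and at 151, 174 and 144 CPM with HDAC1 and vehicle. With TGFB1 it stood at 166, 169 and 177 CPM on the empty vector and at 184, 228 and 181 CPM with HDAC1. Neither treatment's libraries overlapped with those of the matching group without it, and the means rose from neither treatment to HDAC1 alone, TGFB1 alone and both. HDAC1 in vehicle raised Acat2 by 0.57 ± 0.082 on the log2 scale (edgeR adjusted p = 0.000105), and TGFB1 on the empty vector by 0.70 ± 0.083 (adjusted p = 5.41e-07). With TGFB1 present the HDAC1 value was 0.21 ± 0.082 (edgeR adjusted p = 0.119), which was not called although all 3 libraries lay above all 3.

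Mvd, the decarboxylase that forms isopentenyl diphosphate, stood at 27.7, 23.4 and 28.5 CPM in empty vector vehicle libraries and 50.4, 52.9 and 60.2 CPM with TGFB1, 2.05-fold higher (adjusted p = 3.74e-07, edgeR). Its rise with HDAC1 in vehicle to 32.8, 39.3 and 30.9 CPM was 0.37 ± 0.11 on the log2 scale (edgeR adjusted p = 0.0375), and with replicate 2 of both HDAC1 groups left out it was 0.26 (adjusted p = 0.102). Fdft1, squalene synthase, rose by 0.75 with TGFB1 on the empty vector and by 0.32 with HDAC1 in vehicle (edgeR adjusted p = 6.73e-07 and 0.0205), and the HDAC1 value without both libraries was 0.21 (adjusted p = 0.0629). Hmgcs1, HMG-CoA synthase, rose with TGFB1 from 150.1 ± 8.98 CPM (SD, n = 3) to 261 ± 3.12 CPM on the empty vector, and its HDAC1 value in vehicle was 0.28 ± 0.12 (edgeR adjusted p = 0.143).

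Fdps, which makes farnesyl diphosphate, was split over its identifiers, and how reads were divided between them is not known, so both are uncertain. The identifier ENSRNOG00000077379 rose with TGFB1 on the empty vector from 192, 187 and 189 to 347, 329 and 418 CPM, by 0.95 ± 0.12 on the log2 scale (edgeR adjusted p = 4.75e-06). The identifier ENSRNOG00000043377 stood at 18.4, 14 and 17.6 CPM and at 15, 14.7 and 16.5 CPM in the same groups (log2 fold change -0.12 ± 0.12, adjusted p = 0.406), so only the former carried the rise. The mevalonate kinases Mvk and Pmvk, which add the phosphates, had smaller values than their neighbours in the chain. Mvk had a called rise with TGFB1 on the empty vector of 0.30 (edgeR adjusted p = 0.0257) with overlapping libraries, and it lost that call when replicate 2 or 3 of the empty vector vehicle group or replicate 1 or 3 of the empty vector TGFB1 group was left out (adjusted p = 0.0633, 0.095, 0.0631 and 0.196). Pmvk fell with TGFB1 in HDAC1 cells by 0.27 on the log2 scale (edgeR adjusted p = 0.0316), and on the empty vector its value was -0.17 ± 0.099 (adjusted p = 0.164). Without both replicate 2 libraries the Pmvk fall in HDAC1 cells was not called (adjusted p = 0.101).

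Across the section, HDAC1 in vehicle raised 4 of 9 identifiers (Acat2, Mvd, Idi1 and Fdft1) and lowered 0, against 6.64% and 7.32% of all genes. Of the 4, Acat2 and Idi1 were still called without both replicate 2 libraries. HDAC1 with TGFB1 changed 0 of 9 by the edgeR test, against 2.17% of all genes raised and 4.36% lowered. An unadjusted p under 0.05 was found for 1 of 9, against 23% of all genes. The log2 values of the 9 ran from -0.13 to 0.21. TGFB1 in HDAC1 cells raised 6 and lowered 1, Pmvk, against 24.9% and 24.2% of all genes. Without both replicate 2 libraries it raised 6 and lowered 0, against 17.3% and 19.6%. On the empty vector the counts were 7 and 0 either way.

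In the second section, from squalene to cholesterol, TGFB1 on the empty vector raised 7 of 10 enzymes and lowered 0, against 25.9% and 25% of all genes. Msmo1, the oxidase that removes methyl groups from the sterol ring, had the largest TGFB1 rise of all members. It stood at 159, 164 and 158 CPM with empty vector and vehicle, 203, 247 and 192 CPM with HDAC1 and vehicle, 433, 439.7 and 486 CPM with empty vector and TGFB1, and 444, 510.4 and 429.9 CPM with HDAC1 and TGFB1. The TGFB1 groups overlapped each other and lay far above the vehicle groups, of which HDAC1 was the higher with no overlap. TGFB1 raised Msmo1 2.83-fold on the empty vector and 2.16-fold in HDAC1 cells (edgeR adjusted p = 1.19e-11 and 1.12e-09). HDAC1 raised it 1.34-fold in vehicle (adjusted p = 0.00201), and its log2 value with TGFB1 was 0.026 ± 0.083 (adjusted p = 0.888).

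Cyp51, the demethylase of lanosterol, rose from 216, 222 and 200.1 CPM to 499, 467 and 542 CPM with TGFB1 on the empty vector, 2.36-fold (edgeR adjusted p = 2.14e-09). With HDAC1 it stood at 237, 295 and 231 CPM in vehicle and at 472, 569 and 464 CPM with TGFB1. Its vehicle libraries with HDAC1 all lay above those of the empty vector, but the log2 value of 0.26 ± 0.093 was not called (adjusted p = 0.0734). Hsd17b7, a ketosteroid reductase of the same demethylation steps, stood at 4.99, 4.88 and 4.87 CPM with empty vector and vehicle and at 6.97, 8.06 and 7.17 CPM with HDAC1, a log2 rise of 0.59 ± 0.12 (edgeR adjusted p = 0.00251). With TGFB1 it stood at 8.63, 9.8 and 10.1 CPM on the empty vector and 10, 12.3 and 11 CPM with HDAC1, and these overlapped (log2 value 0.23 ± 0.11, adjusted p = 0.234). Its TGFB1 rise was 0.95 ± 0.12 on the empty vector (edgeR adjusted p = 1.48e-06).

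Sc5d, a desaturase near the end of the pathway, went from 59.9, 64.4 and 59.5 CPM to 79.1, 85.7 and 69.2 CPM with HDAC1 in vehicle and to 96.4, 97.9 and 104 CPM with TGFB1 on the empty vector. Both of these groups lay wholly above the first, by log2 values of 0.35 ± 0.078 and 0.70 ± 0.078 (edgeR adjusted p = 0.00412 and 2.09e-07). Sqle, the squalene epoxidase, Nsdhl, a sterol dehydrogenase, and Dhcr7, the sterol reductase of the last step on one branch, rose with TGFB1 on the empty vector by 0.40, 0.48 and 0.74. In HDAC1 cells the TGFB1 value of Sqle was 0.14 and was not called (edgeR adjusted p = 0.223). Dhcr7 rose there by 0.36 with overlapping libraries (edgeR adjusted p = 0.0215), and that call was lost in 5 of the 12 fits that leave out 1 library, with the lowest value, 0.19, without replicate 2 of the HDAC1 TGFB1 group (adjusted p = 0.186).

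A few steps did not follow. Lss, which closes squalene epoxide into lanosterol, stood at 49, 46.9 and 48.5 CPM with empty vector and vehicle and at 46.6, 45 and 48.2 CPM with TGFB1 (log2 value -0.047 ± 0.14, edgeR adjusted p = 0.798). With HDAC1 it stood at 41, 57.5 and 40.3 CPM in vehicle and 37.5, 51.9 and 37.1 CPM with TGFB1, with replicate 2 above and the other libraries below the matching empty vector values in each. Without both replicate 2 libraries, Lss fell with HDAC1 in vehicle by 0.24 and with TGFB1 by 0.33 on the log2 scale (edgeR adjusted p = 0.038 and 0.0201). Tm7sf2 and Ebp, a sterol reductase and a sterol isomerase, had called rises with HDAC1 in vehicle of 0.53 and 0.25 (edgeR adjusted p = 0.0201 and 0.0401) and none with TGFB1 on the empty vector (0.19 and 0.13, adjusted p = 0.316 and 0.201). Tm7sf2 was called in vehicle without both replicate 2 libraries (adjusted p = 0.0168) and Ebp was not (adjusted p = 0.127).

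HDAC1 in vehicle raised 5 of these 10 enzymes (Tm7sf2, Msmo1, Hsd17b7, Ebp and Sc5d) and lowered 0, against 6.64% and 7.32% of all genes. All 3 HDAC1 libraries lay above all 3 of the empty vector for 8 of the 10, as they did for 15.2% of all genes. Without both replicate 2 libraries HDAC1 in vehicle raised 4 and lowered 1, Lss, against 6.57% and 6.64% of all genes. HDAC1 with TGFB1 changed 0 of 10 by the edgeR test, against 2.17% of all genes raised and 4.36% lowered. An unadjusted p under 0.05 was found for 0 of 10, against 23% of all genes. Leaving out both replicate 2 libraries, HDAC1 with TGFB1 raised 0 and lowered 1, also Lss, against 1.83% and 3.32% of all genes. TGFB1 in HDAC1 cells raised 6 and lowered 0, against 24.9% and 24.2% of all genes. With those libraries left out it raised 5 and lowered 1, against 17.3% and 19.6% of all genes. Nsdhl was then no longer called (0.19, edgeR adjusted p = 0.117), and Tm7sf2 fell by 0.35 on the log2 scale (edgeR adjusted p = 0.0306). On the empty vector the counts were 7 and 0 either way.

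**Figure D3:**
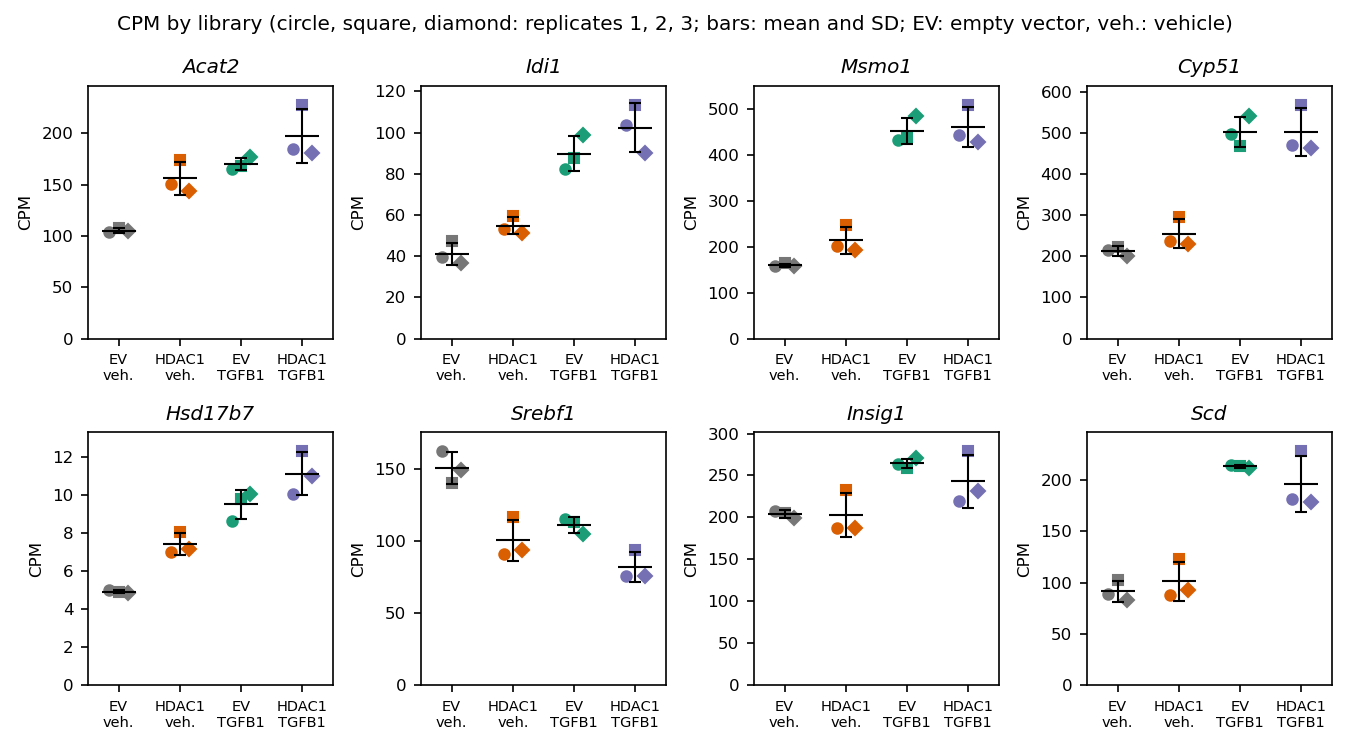
CPM (y axis, from 0) of 8 members in the 12 libraries, by group on the x axis; circles, squares and diamonds are replicates 1, 2 and 3, and bars are the mean and SD of 3 libraries. In each HDAC1 group the square is the highest of the 3 libraries of that group in every panel. The means of the enzymes are highest in the TGFB1 groups, and Srebf1 falls.

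Of the 6 regulators and carriers, TGFB1 raised 2 (Insig1 and Stard4) and lowered 2 (Insig2 and Srebf1) in both plasmid groups, and the counts were the same without both replicate 2 libraries. With all libraries, TGFB1 raised 25.9% and lowered 25% of all genes on the empty vector, and 24.9% and 24.2% in HDAC1 cells. Counts this small lie near those shares. HDAC1 lowered 1 of the 6 in each treatment, against 7.32% of all genes in vehicle and 4.36% with TGFB1. Without both replicate 2 libraries it lowered 1 in vehicle and 2 with TGFB1, against 6.64% and 3.32% of all genes. With TGFB1 Insig1 then also fell (-0.23, edgeR adjusted p = 0.0424). Srebf1, the gene of SREBP-1a and SREBP-1c, was the single member that HDAC1 lowered by the edgeR test with all libraries in, and it fell in every one of the comparisons between groups. It stood at 163, 141 and 149.5 CPM with empty vector and vehicle, 91.1, 117 and 93.9 CPM with HDAC1 and vehicle, 115, 114 and 105 CPM with empty vector and TGFB1, and 75.7, 93.9 and 75.7 CPM with HDAC1 and TGFB1. HDAC1 libraries lay below empty vector libraries in vehicle and with TGFB1, and the HDAC1 TGFB1 group was the lowest, overlapping only with HDAC1 and vehicle. Its log2 fold changes under HDAC1 were -0.59 ± 0.094 in vehicle and -0.44 ± 0.096 with TGFB1 (edgeR adjusted p = 0.000375 and 0.011), and without both replicate 2 libraries -0.70 and -0.56. The call with TGFB1 was lost when replicate 1 of the empty vector TGFB1 group, or replicate 1 or 3 of the HDAC1 TGFB1 group, was left out (adjusted p = 0.0502, 0.0759 and 0.067). Its log2 fold changes under TGFB1 were -0.44 ± 0.095 on the empty vector and -0.30 ± 0.096 in HDAC1 cells (edgeR adjusted p = 0.000699 and 0.0155). The latter call was lost without replicate 2 of the HDAC1 vehicle group (adjusted p = 0.0673) and with only the groups compared in the fit (0.0706). With both treatments against neither, Srebf1 was at 0.542 of the starting level (adjusted p = 2.27e-07).

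Srebf2, the gene of SREBP-2, was not called in any comparison with all libraries in: it stood at 246, 216 and 240.4 CPM with empty vector and vehicle and 257, 232 and 226 CPM with TGFB1, and its TGFB1 value was 0.026 ± 0.1 (edgeR adjusted p = 0.855). Without both replicate 2 libraries, Srebf2 fell in HDAC1 plus TGFB1 against neither by 0.25 on the log2 scale (adjusted p = 0.0255). Scap, the escort protein, had log2 values from -0.10 to 0.045 in the comparisons of 1 factor, none of them called. Insig1, an SREBP target and anchor of Scap, rose with TGFB1 on the empty vector from 208, 205 and 199 to 264, 259 and 270.4 CPM, with no overlap (log2 fold change 0.38 ± 0.086, edgeR adjusted p = 0.00113). In HDAC1 cells it went from 187, 233 and 187 to 219, 279 and 231 CPM, with overlap (log2 fold change 0.27 ± 0.086, adjusted p = 0.0151). Insig2, the other anchor, fell with TGFB1, with log2 fold changes of -0.37 ± 0.087 on the empty vector and -0.34 ± 0.087 in HDAC1 cells (edgeR adjusted p = 0.00116 and 0.00292), so the pair of Insig transcripts moved in opposite directions. Stard4, a carrier of cholesterol between membranes, rose by 0.35 and 0.35 (adjusted p = 0.00912 and 0.00863).

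Among the 6 enzymes of fatty acid synthesis, TGFB1 raised 5 in both plasmid groups, against 25.9% of all genes on the empty vector and 24.9% in HDAC1 cells. It lowered 1, Acss2, in HDAC1 cells, against 24.2% of all genes. Leaving out both replicate 2 libraries, TGFB1 raised 5 and lowered 1, Acss2, on the empty vector, where 23.4% of all genes rose and 25.5% fell. In HDAC1 cells it then raised 4 and lowered 1, also Acss2, against 17.3% and 19.6% of all genes. Scd, the desaturase that makes monounsaturated fatty acids, rose the most, from 88.5, 103 and 83.1 CPM to 215, 214 and 212 CPM on the empty vector (log2 fold change 1.23 ± 0.12, edgeR adjusted p = 1.34e-06). In HDAC1 cells it went from 88, 123 and 92.5 CPM to 182, 228 and 179 CPM (0.96 ± 0.12, adjusted p = 1.71e-05). Fasn, fatty acid synthase, and Acaca, acetyl-CoA carboxylase, rose with TGFB1 by 0.65 and 0.44 on the empty vector and by 0.65 and 0.50 in HDAC1 cells. Their HDAC1 values in vehicle were 0.026 ± 0.1 and -0.10 ± 0.077, neither called (edgeR adjusted p = 0.903 and 0.449). Acly, which makes cytosolic acetyl-CoA from citrate, rose with TGFB1 by 0.29 and 0.24 (edgeR adjusted p = 0.00308 and 0.0113), and without both replicate 2 libraries its value in HDAC1 cells was 0.20 (adjusted p = 0.065). Acss2, which makes acetyl-CoA from acetate, went the other way: it fell with TGFB1 in HDAC1 cells from 31.3, 39.2 and 33 to 20.2, 28.7 and 20.7 CPM (-0.56 ± 0.11, adjusted p = 0.000419), and on the empty vector its value was -0.27 ± 0.12 (adjusted p = 0.0592). That value was -0.29 and was called without both replicate 2 libraries (edgeR adjusted p = 0.00626).

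Elovl6, a fatty acid elongase, was the only member with a called rise under HDAC1 in both treatments, as were 1.1% of all genes, and Srebf1 was the only one with a called fall in both, as were 1.97% of all genes. Elovl6 stood at 18.9, 22.2 and 19.6 CPM with empty vector and vehicle, 25.3, 29.4 and 24.5 CPM with HDAC1 and vehicle, 34.6, 37.9 and 34.4 CPM with empty vector and TGFB1, and 41.2, 49.1 and 41.8 CPM with HDAC1 and TGFB1. The 4 groups formed 4 steps with no overlap between any of them. HDAC1 raised it by 0.39 ± 0.094 in vehicle and 0.31 ± 0.089 with TGFB1 (edgeR adjusted p = 0.0075 and 0.0437). The call with TGFB1 was lost in 5 of the 12 fits that leave out 1 library. Its log2 value was 0.35 and 0.34 without replicate 1 or 3 of the HDAC1 TGFB1 group, 0.28 and 0.28 without replicate 1 or 3 of the empty vector TGFB1 group, and 0.22 without replicate 2 of the HDAC1 TGFB1 group (edgeR adjusted p = 0.0897, 0.0939, 0.144, 0.115 and 0.202). From 237 to 768 of all genes were called for HDAC1 with TGFB1 in these 5 fits, against 954 with all libraries. Without both replicate 2 libraries the value was 0.22 (adjusted p = 0.172). HDAC1 raised 1 of the 6 fatty acid enzymes in vehicle and with TGFB1, against 6.64% and 2.17% of all genes. Without both replicate 2 libraries it raised 1 and 0, against 6.57% and 1.83%.

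**Figure D4:**
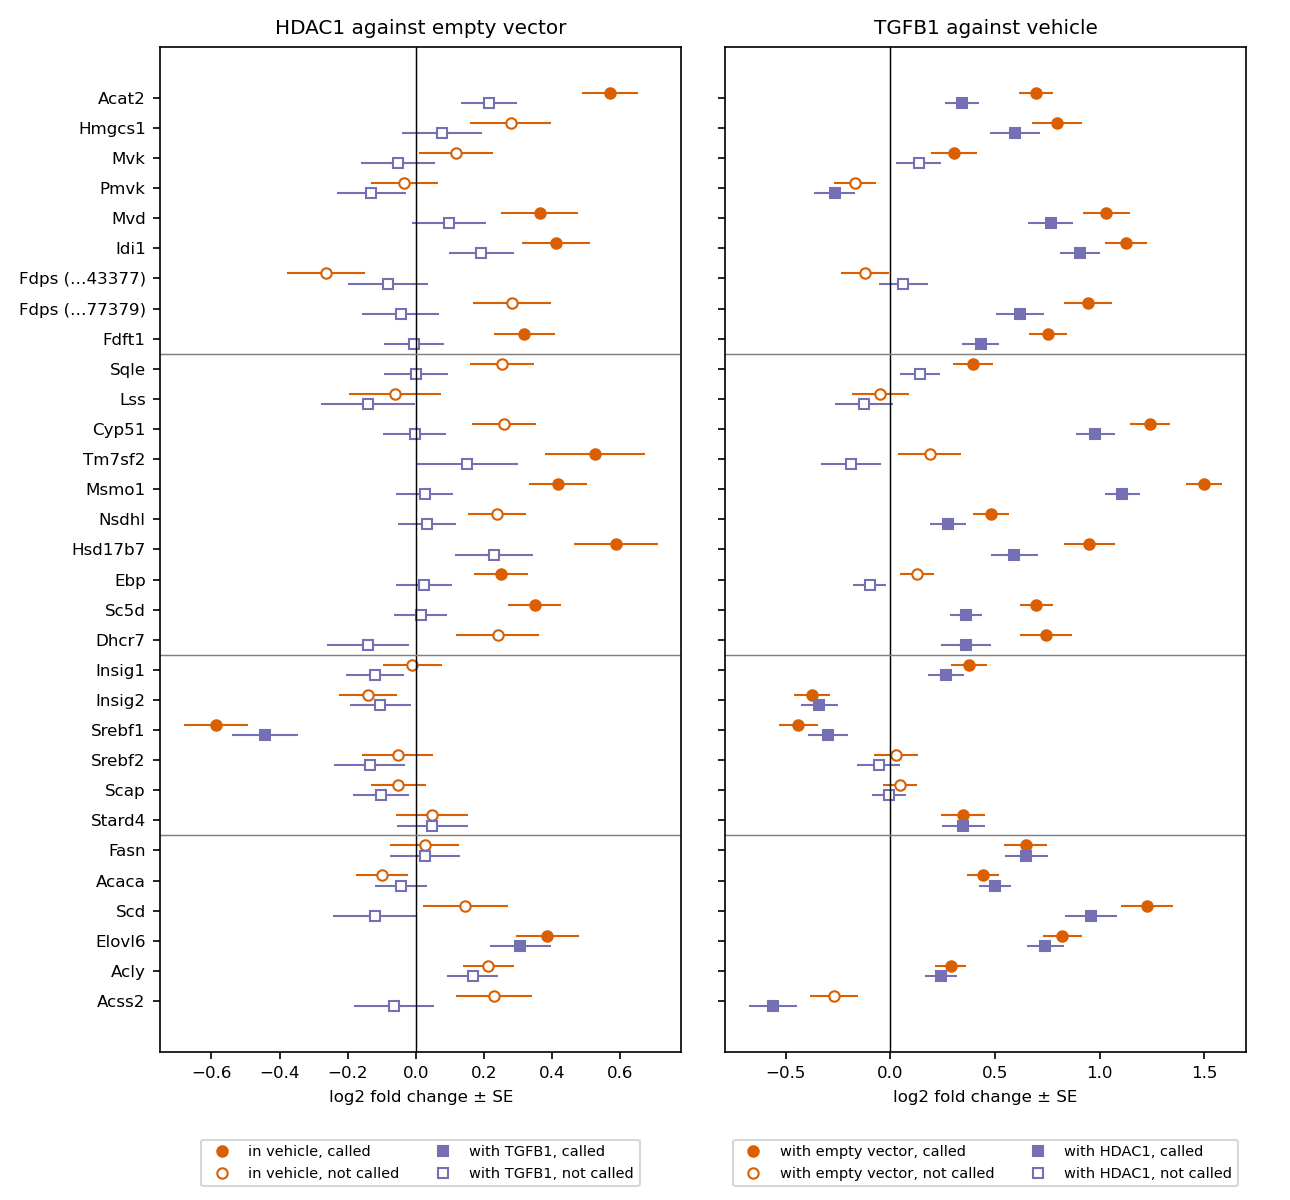
Log2 fold changes with their SE (x axes) of the 31 member identifiers in pathway order; the left panel shows HDAC1 against empty vector in vehicle (circles) and with TGFB1 (squares), the right panel TGFB1 against vehicle with empty vector (circles) and with HDAC1 (squares), and filled symbols are called. On the left the squares of most enzymes lie nearer 0 than the circles; on the right circles and squares both lie above 0 for most enzymes.

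Leaving out 1 library at a time ended calls of other members too. For HDAC1 in vehicle, Fdft1 was lost without replicate 2 of either vehicle group (edgeR adjusted p = 0.11 and 0.077), Tm7sf2 without HDAC1 replicate 2 or empty vector replicate 2 or 3 (0.0841, 0.0602 and 0.0658), and Elovl6 without empty vector replicate 1 (0.0506). Mvd was lost without replicate 1 or 2 of either vehicle group or replicate 3 of the HDAC1 TGFB1 group, with adjusted p from 0.0521 to 0.141, and Ebp without HDAC1 replicate 1 or 2 or empty vector replicate 1 or 3, with adjusted p from 0.0873 to 0.115. The Ebp call was also lost with no filter on low counts (adjusted p = 0.0785), with only the groups compared in the fit (0.0549) and with the replicate number as a block (0.0568), at log2 values of 0.25 in each. Acat2, Hsd17b7, Idi1, Msmo1, Sc5d and Srebf1 were the 6 of 11 members called in every one of these fits. For TGFB1 in HDAC1 cells, the rises of Acat2, Acly, Insig1, Nsdhl and Stard4 were lost without replicate 2 of the HDAC1 TGFB1 group (adjusted p = 0.0541, 0.176, 0.26, 0.193 and 0.18). Their log2 values were then 0.19, 0.13, 0.12, 0.15 and 0.17, against 0.34, 0.24, 0.27, 0.28 and 0.35 with all libraries. Insig1 was lost there also without HDAC1 vehicle replicate 1 or 3 (0.0689 and 0.0753), Stard4 without replicate 1 (0.0578) and Nsdhl without replicate 3 (0.0569) of that group, and Pmvk without HDAC1 vehicle replicate 2 or HDAC1 TGFB1 replicate 1 or 3 (0.147, 0.0644 and 0.0794). With only the groups compared in the fit, Dhcr7, Insig1 and Srebf1 lost their calls for TGFB1 in HDAC1 cells (edgeR adjusted p = 0.139, 0.087 and 0.0706). Pmvk lost its call there with the DESeq2 test (adjusted p = 0.0542). For TGFB1 on the empty vector, 22 of 23 members, all but Mvk, were called in every such fit.

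Across the members, the HDAC1 values in vehicle and with TGFB1, which share no libraries, had a Pearson correlation of 0.82 over 31 identifiers (0.12 over all genes), and the TGFB1 values on the empty vector and with HDAC1 one of 0.95 (0.73 over all genes). These are descriptions across genes, which are not independent replicates. Both HDAC1 values include a replicate 2 library that was the highest of its group in 31 of 31 members. The correlation without those libraries was not computed. The HDAC1 value was higher in vehicle than with TGFB1 for 25 of 31 members, against 48.7% of all genes. This is the same quantity as the count of negative interactions given below. TGFB1 raised 19 members in both plasmid groups, as it did 20.2% of all genes, and lowered 2 in both, as it did 18.8% of all genes.

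Whether the rises from HDAC1 and TGFB1 added up was asked in a pair of ways, since adding log2 changes means multiplying levels. The interaction term of the edgeR fit compares the level with both treatments with the product of the separate changes, and it called 0 of 31 members, against 0.479% of all genes. At an unadjusted p under 0.05 there were 6 members, against 12.9% of all genes, and the DESeq2 test called 0 as well. The interaction was negative in 25 of 31 members (48.7% of all genes) and in 10 of 10 enzymes from squalene to cholesterol, with a median of -0.21 over the members and 0.0071 over all genes; without both replicate 2 libraries it called 0 members, with a median of -0.23. Msmo1 had the smallest adjusted p, with an interaction of -0.39 ± 0.12 on the log2 scale (adjusted p = 0.131), followed by Sc5d at -0.34 ± 0.11 and Acat2 at -0.36 ± 0.12 (both adjusted p = 0.165). Fasn and Stard4 had values of 0.0019 ± 0.14 and 0.00012 ± 0.15, and Srebf1 one of 0.14 ± 0.13.

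On the CPM scale, the level with both treatments was compared with the empty vector vehicle level plus the separate changes of HDAC1 and TGFB1, with an SE from the spread of the 4 groups and with no test. The measured level was below that sum in 24 of 31 members, against 44.6% of all genes, at a median of 92.7% of the sum (101% over all genes) and 86.7% of the product. From squalene to cholesterol all 10 enzymes were below it, at a median of 88.8%, and from acetyl-CoA to squalene 8 of 9 identifiers, at 93.4%. Of the regulators 3 of 6 were below it, and of the fatty acid enzymes 3 of 6, at a median of 100%. By this SE, 2 of 31 members, Ebp and Sc5d, lay below the sum by more than 2 SE, against 8.41% of all genes. The SE takes the libraries of the 4 groups as independent. Replicate 2 was highest in both HDAC1 groups for 31 of 31 members, and an SE that allows for such a shared shift was not computed.

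For Msmo1, HDAC1 alone added 54 CPM and TGFB1 alone 293 CPM to 160.0 CPM, and both together added 301 CPM, -45.7 ± 34.4 CPM (SE) from the sum. For Sc5d the separate gains were 16.8 and 38.1 CPM and the joint gain was 39 CPM, so the joint gain was close to that of TGFB1 alone. Acat2 gained 51, 65.2 and 92.4 CPM in the same order, more than with either alone and less than their sum by 23.8 ± 18.1 CPM. Idi1 and Elovl6 reached 99.2% and 105% of the sum, with departures of -0.807 ± 9.26 and 2.21 ± 3.32 CPM. For Srebf1, which both treatments lowered, the measured level of 81.8 CPM was 20.8 ± 12.4 CPM above the 61 CPM of the summed falls. It was 110% of the 74.2 CPM of the product. Leaving out both replicate 2 libraries gave 26 of 31 members below the sum, at a median of 90.2%, while leaving out only that of HDAC1 and vehicle gave 18, and only that of HDAC1 and TGFB1 gave 28.

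**Figure D5:**
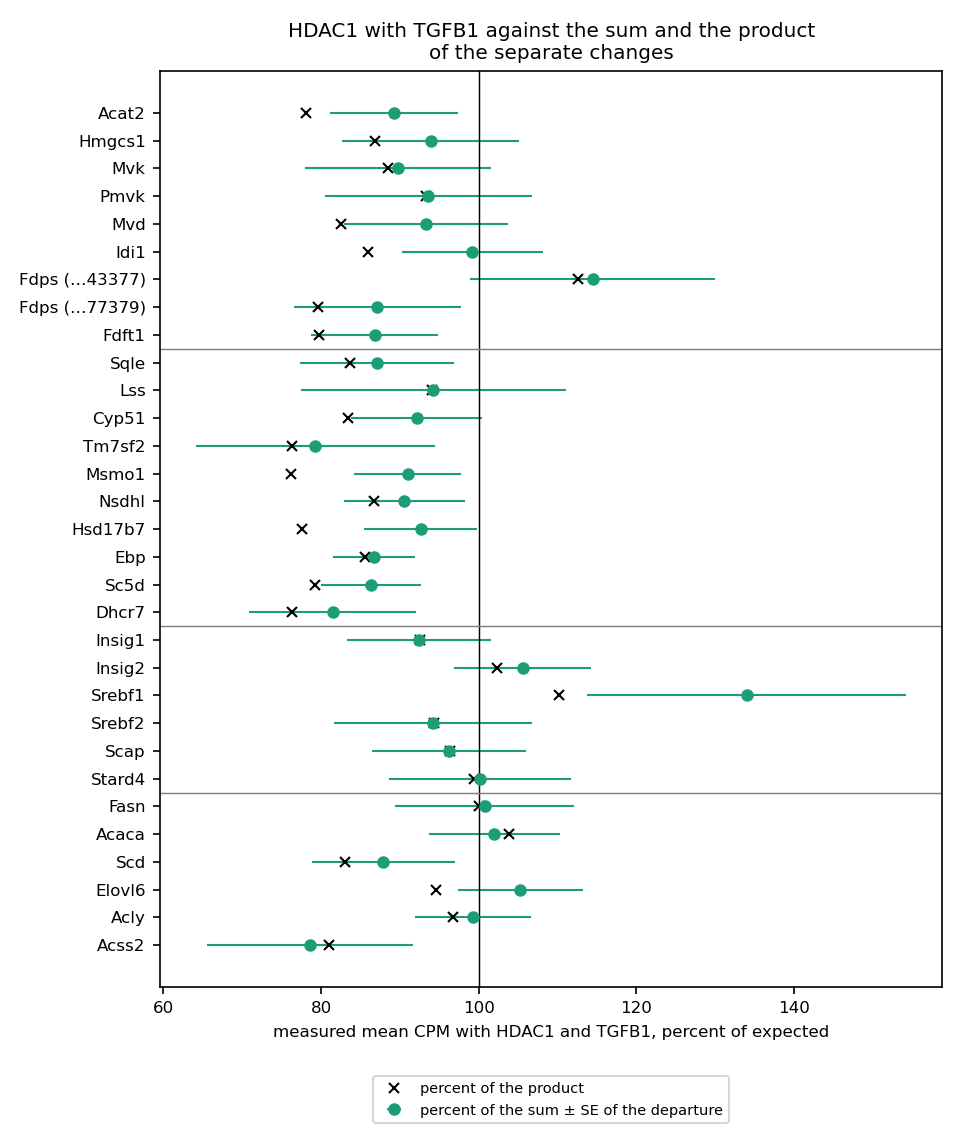
Mean CPM with HDAC1 and TGFB1 together as a percent (x axis) of the sum of the separate changes (circles, with the SE of the departure) and of their product (crosses), for the 31 member identifiers in pathway order. Of the circles 24 lie left of 100, those of the 10 enzymes from squalene to cholesterol among them, and 2 members, Ebp and Sc5d, lie below 100 by more than 2 SE.

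Lists outside the members gave a wider view of the system. Of 13 other SREBP targets tested (14 listed), TGFB1 on the empty vector raised 5 and lowered 2, with 25.9% and 25% of all genes, and HDAC1 in vehicle raised 2, Tmem97 and Me1, and lowered 0, with 6.64% and 7.32% of all genes; counts this small lie near those shares. Tmem97, a sterol-binding membrane protein, stood at 61.6, 59.2 and 65.9 CPM with empty vector and vehicle, 86.6, 81.8 and 76.6 CPM with HDAC1, 136, 129.6 and 154 CPM with TGFB1 and 143, 151 and 150.3 CPM with both. It rose by 0.39 ± 0.072 with HDAC1 in vehicle and 1.17 ± 0.072 with TGFB1 on the log2 scale (edgeR adjusted p = 0.000839 and 2.79e-11). Of 12 tested genes of SREBP processing and sterol sensing (16 listed), HDAC1 in vehicle lowered 1 and raised 0, near the 7.32% and 6.64% of all genes. The gene lowered was Rnf145, a ubiquitin ligase that acts on Scap, by 0.32 (edgeR adjusted p = 0.00181). TGFB1 on the empty vector raised 5 of the 12, among them Nfyb, a subunit of NF-Y, by 0.64 (edgeR adjusted p = 9.36e-06). It lowered 2, Rnf145 and Erlin2 (edgeR adjusted p = 2.03e-06 and 6.74e-05). These counts were again near the 25.9% and 25% of all genes. Among 14 tested genes of sterol storage, uptake, transport and efflux (16 listed), TGFB1 on the empty vector raised 2 and lowered 10, against 25.9% and 25% of all genes, and HDAC1 in vehicle raised 0 and lowered 4, against 6.64% and 7.32%. The exporter Abca1 went from 44.6, 43.5 and 38.1 CPM to 17.2, 20 and 19.5 CPM with HDAC1 and 5.11, 7.66 and 5.36 CPM with TGFB1, log2 fold changes of -1.15 and -2.79 (edgeR adjusted p = 2.94e-06 and 4.89e-13).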

How the data were processed

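Poly(A) RNA libraries of NRK-49F cells were analysed as 4 groups of 3, taken from the sample titles. The deposited raw table holds whole-number counts per gene for 43360 rat Ensembl identifiers. Reads were trimmed with Trim Galore 0.6.7 and counted with featureCounts (Subread 2.0.1), and DESeq2 1.44 was used, per the submitters' processing notes, which name a mouse build although the identifiers are rat; the aligner and the rat build are not given in the sources used here. The deposited normalized table (signal, the counts divided by 1 constant per library) was used for gene names and keeps genes whose total reaches 100 counts. Depth was 18397093 to 36652084 counts per library, and no replicate pair agreed within sampling noise (chi-square per degree of freedom at least 3.89).

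Raw counts were fitted with edgeR 4.0.16 in R 4.3.3 (filterByExpr, TMM, robust quasi-likelihood F test, 1 mean per group, all 12 libraries, 14601 genes, 8 residual degrees of freedom, two-sided, Benjamini-Hochberg adjustment over all genes, called under 0.05). CPM values use the TMM library sizes, and the SE of a log2 fold change comes from the F statistic. The script was tested on simulated data. Alternatives were DESeq2 size factors, the DESeq2 1.42.0 test, other filters on low counts, only the groups compared, the replicate number as a block, and leaving out libraries. All members were named; of each other list, up to 4 genes per comparison with the smallest adjusted p among those called could be named. The members and lists were chosen with earlier results of these data known. Of 18 correlations between deviations of same-numbered libraries, 4 were over 0.1 (-0.36 to 0.37). Between the HDAC1 groups they were 0.24, 0.37 and 0.042 for replicates 1, 2 and 3, against -0.30 to 0.030 for different numbers. The labels do not say that the numbers pair libraries, and the main fit did not pair them. A replicate effect shared by the HDAC1 groups alone was not tested.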

Additional observations from a re-analysis of the deposited data

How the results depend on the processing

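The number of members called for HDAC1 in vehicle, 11, became 17 with no filter on low counts, and that setting called 3 members for the interaction, where the fit with the filter called 0; the cause was not tested. Over all genes that setting called 479 of 30321 genes for the interaction (1.58%), against 70 of 14601 with the filter (0.479%), and 2204 for HDAC1 in vehicle (7.27%), against 2038 (14%). Leaving out each library in turn gave 7 to 15 members for HDAC1 in vehicle, where 7.7% to 18% of all genes were called. For HDAC1 with TGFB1 it gave 0 to 2 (1.59% to 8.39% of all genes). It gave 22 to 24 for TGFB1 on the empty vector (44.5% to 50.5%) and 19 to 23 for TGFB1 in HDAC1 cells (41.6% to 51.4%). For the interaction it gave 0 to 0 (0.0201% to 1.73%). For HDAC1 plus TGFB1 against neither it gave 23 to 26 (50.8% to 58.8%). It gave 18 to 28 members below the sum on the CPM scale. The lowest count for HDAC1 in vehicle, 7, came without replicate 2 of that HDAC1 group. That fit called 14.6% of all genes, against 14% with all libraries. For HDAC1 with TGFB1, 0 members were called without replicate 1 or 3 of the HDAC1 TGFB1 group or replicate 1 of the empty vector TGFB1 group. In the same order, these fits called 237, 291 and 405 of all genes, against 954 with all libraries. With the replicate number as a block, 11 members were called for HDAC1 in vehicle (12.3% of all genes) and 2 for HDAC1 with TGFB1 (5.37%). In that fit 24 were called for TGFB1 on the empty vector (49.3%) and 23 for TGFB1 in HDAC1 cells (47.4%). The interaction had 0 (0.671%), and both treatments against neither had 25 (55.3%). Ebp lost its call for HDAC1 in vehicle there (edgeR adjusted p = 0.0568) and Hmgcs1 gained a call. Acss2 gained a fall under TGFB1 on the empty vector and Tm7sf2 a rise under both treatments. Of 12 libraries, 3 correlated best with their own number. Log2 values of members changed sign 132 times over the alternatives, in 0 cases with a call. Groups of 3 libraries limit the precision of every interaction and of every departure from a sum.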
